A study of Mus musculus with 6 samples.

Results

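The expression of 10 circadian clock genes was examined in the liver of WT mice and of mice carrying the TRIM24-C52/55A knockin: *Arntl*, *Clock*, *Npas2*, *Per1*, *Per2*, *Per3*, *Cry1*, *Nr1d1*, *Nr1d2* and *Dbp*. The genes were picked by name, and each was listed once among the 21528 genes found in any library. All 10 passed the filter on low values that left 12225 genes for testing. Both groups were C57BL/6 mice aged 5 months on a diet with 60% of its energy as fat for 3 months, and each group had 3 livers. The knockin replaces 2 cysteines of the RING domain of the endogenous TRIM24 by alanine in every cell, with the aim of removing its E3-ligase activity. WT controls were littermates from crosses of heterozygotes. Animals were kept under a light/dark cycle, and food was freely available unless otherwise stated; the hour at which the livers were taken is not given in the sources used here. Values are FPKM, the fragments of a gene per kilobase of its transcript and per library size.

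The clock of the mammalian cell is a loop of transcription and repression. The proteins of *Arntl* (BMAL1) and of *Clock* or its paralogue *Npas2* bind E-boxes as pairs and switch on the *Per* and *Cry* genes, whose proteins then repress them. In a second loop the nuclear receptors REV-ERBα and REV-ERBβ, from *Nr1d1* and *Nr1d2*, repress *Arntl* and compete with ROR receptors for its promoter. In the liver most of these genes swing strongly over the day, with *Arntl* and *Npas2* in nearly opposite phase to *Dbp* and the *Per* genes. *Dbp* encodes a factor that acts on D-boxes and carries the rhythm to genes of metabolism. A single time point in each liver therefore mixes the level of a gene with its phase.

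Promoter windows of RefSeq (GRCm38.p6, 250 bases before to 50 after an annotated start) were available for 9 of the 10 genes, *Per2* being the other one. They were searched on both strands for an E-box (CACGTG), a D-box (TTATGTAA or TTACGTAA), an element of ROR and REV-ERB (TAGGTCA or TGGGTCA) and a CRE (TGACGTCA). No match of one motif overlapped a match of another in these windows. The 5 matches found are shown because each places a binding word of the loop beside a clock gene whose level is given here. Each stretch of 30 bases reads 5′ to 3′ on the strand of the gene, and capitals mark the match.

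*Per1* E-box: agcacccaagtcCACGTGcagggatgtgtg
*Cry1* E-box: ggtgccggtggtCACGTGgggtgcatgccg
*Per3* first D-box: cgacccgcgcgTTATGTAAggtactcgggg
*Per3* second D-box: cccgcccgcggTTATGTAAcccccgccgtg
*Arntl* ROR and REV-ERB element: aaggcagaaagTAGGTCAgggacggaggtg

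The *Per1* stretch lies at chr11:69098771-69098800 on the + strand and its E-box begins 166 bases before an annotated start that lies inside the gene as given below. The *Cry1* stretch lies at chr10:85185097-85185126 on the - strand, with the E-box 60 bases before the start. Those of *Per3* lie at chr4:151044852-151044881 and chr4:151044805-151044834 on the - strand, 205 and 158 bases before the start. The *Arntl* stretch lies at chr7:113207530-113207559 on the + strand, and its match begins at base 31 of the transcript. Over all 32851 windows of the table, 7.15% held the E-box, 1.06% the D-box, 6.45% the ROR and REV-ERB element and 1.79% the CRE, which none of these clock genes held in its windows. A match is a word in a window, and binding was not measured.

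The 6 livers had markers of hepatocytes at high levels, with 5 hepatocyte genes summing to between 11971 and 14323 FPKM. FPKM keep no total count. Steps between low values gave relative depths from 0.954 to 1.04, with WT replicate 1 as the reference. *Trim24* itself had 4.85 to 5.96 FPKM in WT and 4.31 to 8.46 FPKM in TRIM24-C52/55A livers, which does not check the genotype, since the knockin changes codons only. WT replicate 1 was highest in erythroid markers (sum of 1613 FPKM against 470 to 849 FPKM in the others) and in cholangiocyte markers (53.7 against 21.8 to 33.9 FPKM). *Lyve1*, a marker of sinusoidal endothelium, had 5.00 to 8.40 FPKM in WT and 0.974 to 2.84 FPKM in TRIM24-C52/55A livers. The other markers of that cell type, *Stab2*, *Pecam1*, *Kdr* and *Clec4g*, each overlapped between genotypes. The sum of the 5 was 74.0 to 80.7 FPKM in WT and 67.5 to 74.2 FPKM in TRIM24-C52/55A livers. The part of these cells in the clock genes was not tested. TRIM24-C52/55A replicate 2 stood apart in adipocyte markers. The 5 markers *Adipoq*, *Plin1*, *Lep*, *Retn* and *Cfd* summed to 16.0 FPKM there, against 3.25 to 8.62 FPKM in WT and 0.112 and 0.821 FPKM in the other TRIM24-C52/55A livers, where most of the sum was *Cfd*. *Adipoq*, *Plin1*, *Lep* and *Retn* were at 0 in 4 of the other 5 libraries, and in WT replicate 3 *Lep* and *Retn* were at 0. For each clock gene whose fold change moved by over 1.5 times without this library, that value is given; the spreads within genotype include it.

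Of the 10 clock genes, *Per1* alone passed the test between genotypes, and its level was lower with the knockin. The test was limma on log2(FPKM + 1), with p-values adjusted over all 12225 genes by the Benjamini-Hochberg method and a call at an adjusted p under 0.05. By it 7.72% of all genes were called, 6.09% as lower, so that 1 gene of 10 is a share near the background. Before adjustment 3 of the 10 (*Per1*, *Per2* and *Arntl*) had a p under 0.05, against 23.6% of all genes. The median log2 fold change was -0.10 over the clock genes and -0.08 over all genes. Fold changes are differences of mean log2(FPKM + 1), TRIM24-C52/55A minus WT. On this scale genes of low FPKM have their changes understated, and fewer cells of a type cannot be told apart from less RNA per cell.

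*Per1*, on chromosome 11 from 69095217 to 69109960 (GRCm38, as are all coordinates here), encodes the PERIOD protein whose gene also answers quickly to glucocorticoids and cAMP. It had 5.39, 11.0 and 8.31 FPKM in the WT livers, listed here and below by replicate number, and 3.10, 4.09 and 2.91 FPKM in those of TRIM24-C52/55A. Every TRIM24-C52/55A liver was below every WT liver. The mean fell from 8.22 ± 2.79 to 3.37 ± 0.631 FPKM (SD, n = 3 each), a ratio of 0.409. The log2 fold change was -1.04 (standard error 0.22, 95% interval from -1.54 to -0.54, adjusted p = 0.0268 from limma). The exact two-sided permutation test gave p = 0.1, the smallest that 3 against 3 allow. The call was lost without WT replicate 2 (log2 fold change -0.83, adjusted p = 0.0631 from limma), without WT replicate 3 (adjusted p = 0.101), without TRIM24-C52/55A replicate 1 (adjusted p = 0.103) and without TRIM24-C52/55A replicate 3 (adjusted p = 0.0631). It held without TRIM24-C52/55A replicate 2, the library with adipocyte markers, at a log2 fold change of -1.16 (adjusted p = 0.0296 from limma).

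*Per2*, on chromosome 1 from 91415982 to 91459324, encodes the PERIOD protein whose loss shortens or abolishes rhythms in mice. It had 2.02, 2.51 and 2.60 FPKM in WT and 1.3, 1.21 and 1.74 FPKM in TRIM24-C52/55A livers. The groups did not overlap here either, although the difference missed the threshold. The means were 2.37 ± 0.312 and 1.42 ± 0.281 FPKM (SD, n = 3 each), with a log2 fold change of -0.48 (standard error 0.13, 95% interval from -0.77 to -0.19, adjusted p = 0.0559 from limma). Without TRIM24-C52/55A replicate 3 the adjusted p was 0.0412 from limma, and with TPM, in which each library is rescaled to the same total, it was 0.0323. *Per2* was called in only these 2 of 15 alternatives. With median-of-ratios scaling the log2 fold change was -0.42 (adjusted p = 0.114 from limma). The highest adjusted p was 0.192, without WT replicate 3. *Per1* and *Per2* were the 2 of 10 clock genes whose groups did not overlap, both lower with the knockin. Of all genes tested 28.9% did not overlap, and 22.5% did so on the lower side.

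*Per3*, on chromosome 4 from 151003652 to 151044665, encodes another PERIOD protein, which is dispensable for rhythm. It was the lowest of the clock genes, with 0.612, 0.979 and 0.729 FPKM in WT and 0.402, 0.306 and 0.758 FPKM in TRIM24-C52/55A livers. TRIM24-C52/55A replicates 1 and 2 lay below all WT livers and replicate 3 lay among them. The fitted log2 fold change was -0.26 (95% interval from -0.59 to 0.07, adjusted p = 0.337 from limma). It was -0.17 without TRIM24-C52/55A replicate 2. The interval that the files give for *Per3* spans 947.3 kb against 41.0 kb in the GENCODE M21 annotation and holds 5 other coding genes, among them *Camta1* on the same strand.

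*Cry1*, on chromosome 10 from 85131700 to 85185064, encodes a cryptochrome, the stronger repressor of the BMAL1 and CLOCK pair. It had 6.14, 5.98 and 5.13 FPKM in WT and 7.54, 9.11 and 5.32 FPKM in TRIM24-C52/55A livers, so that replicates 1 and 2 of the latter lay above all WT livers and replicate 3 among them. The fitted log2 fold change was 0.28 (95% interval from -0.10 to 0.66, adjusted p = 0.367 from limma). It was 0.13 without TRIM24-C52/55A replicate 2, the library with adipocyte markers, and 0.46 (adjusted p = 0.0764) without TRIM24-C52/55A replicate 3. The fitted value of *Cry1* was above 0 and those of the *Per* genes were below it, although the intervals of *Cry1* and *Per3* included 0.

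**Figure D1:**
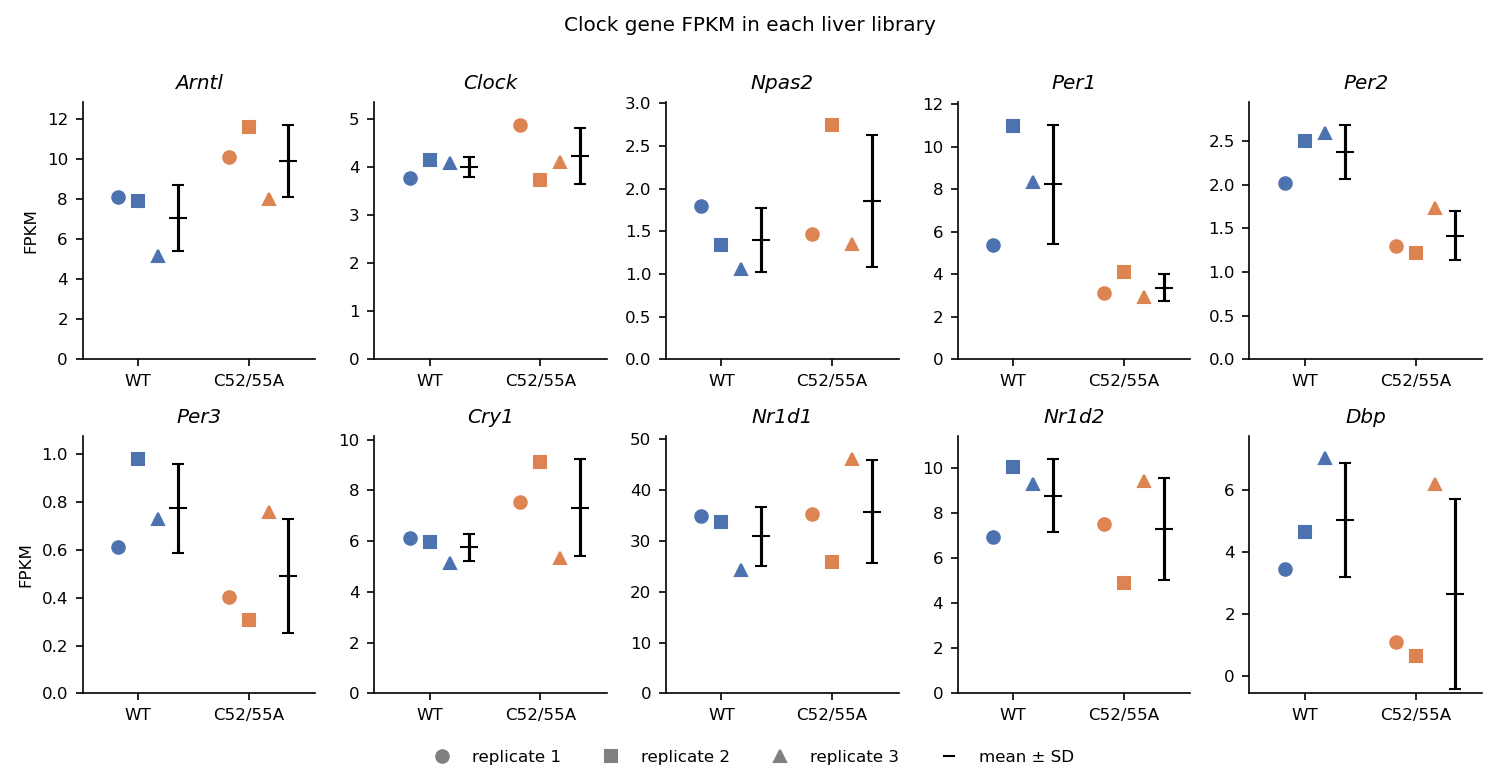
FPKM of the 10 clock genes in each liver library, by genotype (C52/55A is TRIM24-C52/55A); symbols mark the replicate number and black bars the mean ± SD of 3 livers, on a separate linear scale for each gene. *Per1* and *Per2* did not overlap between genotypes, and *Dbp* ran from 0.653 to 6.18 FPKM within the TRIM24-C52/55A livers.

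The activators of the loop had higher or like means with the knockin, and none passed the test. *Arntl*, on chromosome 7 from 113207465 to 113314126, is the one gene of the loop whose loss alone stops the clock. It had 8.09, 7.91 and 5.14 FPKM in WT and 10.1, 11.6 and 7.995 FPKM in TRIM24-C52/55A livers. The lowest of the TRIM24-C52/55A livers, replicate 3, was just under the highest WT liver. The means were 7.04 ± 1.65 and 9.89 ± 1.81 FPKM (SD, n = 3 each), with a log2 fold change of 0.45 (95% interval from 0.03 to 0.86, adjusted p = 0.1802 from limma), and no alternative setting gave an adjusted p under 0.05. Without WT replicate 3 the value was 0.26.

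*Clock*, on chromosome 5 from 76209868 to 76304792, encodes the usual partner of BMAL1. Its values were 3.77, 4.14 and 4.08 FPKM in WT and 4.87, 3.73 and 4.10 FPKM in TRIM24-C52/55A livers. It varied least of the 10 genes, with a log2 fold change of 0.06 and a 95% interval from -0.19 to 0.31. Leaving out TRIM24-C52/55A replicate 2 gave 0.13, and leaving out TRIM24-C52/55A replicate 1 gave -0.025. *Npas2*, on chromosome 1 from 39193731 to 39363236, encodes the paralogue that can stand in for CLOCK. It had 1.80, 1.34 and 1.06 FPKM in WT and 1.47, 2.74 and 1.35 FPKM in TRIM24-C52/55A livers. Its highest value was in TRIM24-C52/55A replicate 2, the library with adipocyte markers, and the part of those cells was not tested. The fitted log2 fold change was 0.23 (95% interval from -0.22 to 0.68, adjusted p = 0.540 from limma) with that library and 0.02 (adjusted p = 0.947) without it.

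The REV-ERB genes did not pass the test, and their fitted values depended on single livers. *Nr1d1*, on chromosome 11 from 98767932 to 98775333, had 34.8, 33.6 and 24.2 FPKM in WT and 35.3, 25.7 and 46.0 FPKM in TRIM24-C52/55A livers. The fitted log2 fold change was 0.18 (95% interval from -0.30 to 0.67, adjusted p = 0.661 from limma), and leaving out TRIM24-C52/55A replicate 3 turned it to -0.015, while leaving out TRIM24-C52/55A replicate 2 gave 0.39. *Nr1d2*, on chromosome 14 from 18204054 to 18239127, had 6.94, 10.04 and 9.29 FPKM in WT and 7.52, 4.90 and 9.39 FPKM in TRIM24-C52/55A livers. Its log2 fold change was -0.26 (95% interval from -0.75 to 0.22, adjusted p = 0.510 from limma). It was -0.039 without TRIM24-C52/55A replicate 2 and -0.45 without TRIM24-C52/55A replicate 3. Within each TRIM24-C52/55A liver, *Nr1d1* was 4.70, 5.25 and 4.90 times *Nr1d2* in FPKM, and in WT 5.00, 3.34 and 2.61 times.

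The 3′ end of *Nr1d1* overlaps that of *Thra*, a thyroid hormone receptor gene on the opposite strand, and the files' interval for *Nr1d1* takes in all of *Thra*. Strand-specific counting is not stated, so that fragments of the overlap cannot be told apart. *Thra* was listed at 6.49 to 7.98 FPKM in WT and 6.59 to 8.35 FPKM in TRIM24-C52/55A livers, with a log2 fold change of -0.01. *Dbp* has the same arrangement with *Sphk2*, and its interval in the files also takes in *Rpl18*. *Sphk2* had 18.7 to 22.1 FPKM in WT and 16.0 to 18.4 FPKM in TRIM24-C52/55A livers, and *Rpl18* had 182 to 217 FPKM over all 6 libraries, with a spread within a genotype far below that of *Dbp* in both.

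*Dbp*, on chromosome 7 from 45705088 to 45710203, is an output gene of the loop with a very wide daily swing in liver. It had 3.44, 4.63 and 7.04 FPKM in WT and 1.11, 0.653 and 6.18 FPKM in TRIM24-C52/55A livers. The first 2 TRIM24-C52/55A livers lay below all WT livers, and replicate 3 lay above 2 of them. The means were 5.04 ± 1.83 and 2.65 ± 3.07 FPKM (SD, n = 3 each), with a log2 fold change of -1.002 (standard error 0.50, 95% interval from -2.14 to 0.14, adjusted p = 0.275 from limma). Without TRIM24-C52/55A replicate 3 the log2 fold change was -1.65 (adjusted p = 0.00941 from limma), and leaving out TRIM24-C52/55A replicate 2 gave -0.59 (adjusted p = 0.468). The result for *Dbp* therefore rested on which TRIM24-C52/55A livers were included. It was the only one of the 10 whose highest and lowest livers of 1 genotype differed by over 3-fold, by 9.46-fold in TRIM24-C52/55A and 2.04-fold in WT.

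**Figure D2:**
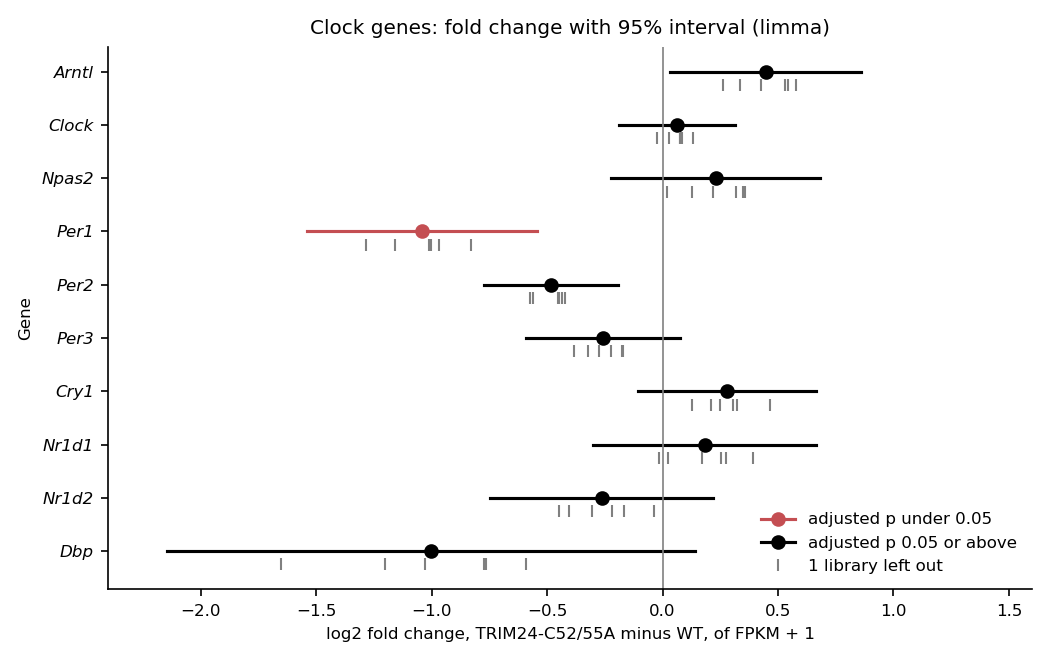
Log2 fold change of each clock gene (TRIM24-C52/55A minus WT, of FPKM + 1; points) with its 95% interval from limma (lines); grey ticks give the value with 1 library left out, and red marks an adjusted p under 0.05. *Per1* at -1.04 is the one red gene, and the ticks of *Dbp* run from -1.65 to -0.59.

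The order of the levels was set out in each genotype, since FPKM are scaled to length. In WT livers the mean FPKM ran from *Nr1d1* (30.8) through *Nr1d2* (8.76), *Per1* (8.22), *Arntl* (7.04), *Cry1* (5.75), *Dbp* (5.04), *Clock* (3.997), *Per2* (2.37) and *Npas2* (1.40) to *Per3* (0.773). From *Nr1d2* to *Clock* each gene overlapped the next in range, whereas *Nr1d1*, *Per2*, *Npas2* and *Per3* were each apart from their neighbours. In TRIM24-C52/55A livers *Nr1d1* (35.7) was again first and *Per3* (0.489) last. Between them *Arntl* (9.89) and *Cry1* (7.32) came next, and *Per1* (3.37) came after *Clock* (4.23). *Arntl*, *Cry1* and *Nr1d2* overlapped in range there, and from *Clock* through *Per1*, *Dbp* and *Npas2* to *Per2* each gene overlapped the next.

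Livers of the same genotype differed more in 9 of the 10 clock genes than in the median of all genes tested, *Clock* being the other one. The spread also depends on level. Among genes within a factor of 2 of its mean FPKM, *Per2* was exceeded by 53.8%, *Clock* by 64.9% and *Per3* by 36.4%. The SD of log2(FPKM + 1) within genotype, pooled over both, was 0.86 for *Dbp*, and 0.319% of all genes tested had a larger one. For *Per1* it was 0.35, exceeded by 4.99% of genes, for *Nr1d1* 0.35 (5.09%), for *Nr1d2* 0.34 (5.47%), for *Npas2* 0.31 (7.42%) and for *Arntl* 0.28 (9.33%). Thus 6 of the 10 were among the 10% of genes with the widest spread. *Cry1* (12.7%), *Per3* (26.5%), *Per2* (42.4%) and *Clock* (60.2%) had narrower ones, and the median over all genes was 0.14. In WT alone *Per1* was exceeded by 1.80% of genes and *Dbp* by 2.15%, and in TRIM24-C52/55A alone *Dbp* by 0.196% and *Per1* by 28.0%. These shares describe the spread and carry no test.

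**Figure D3:**
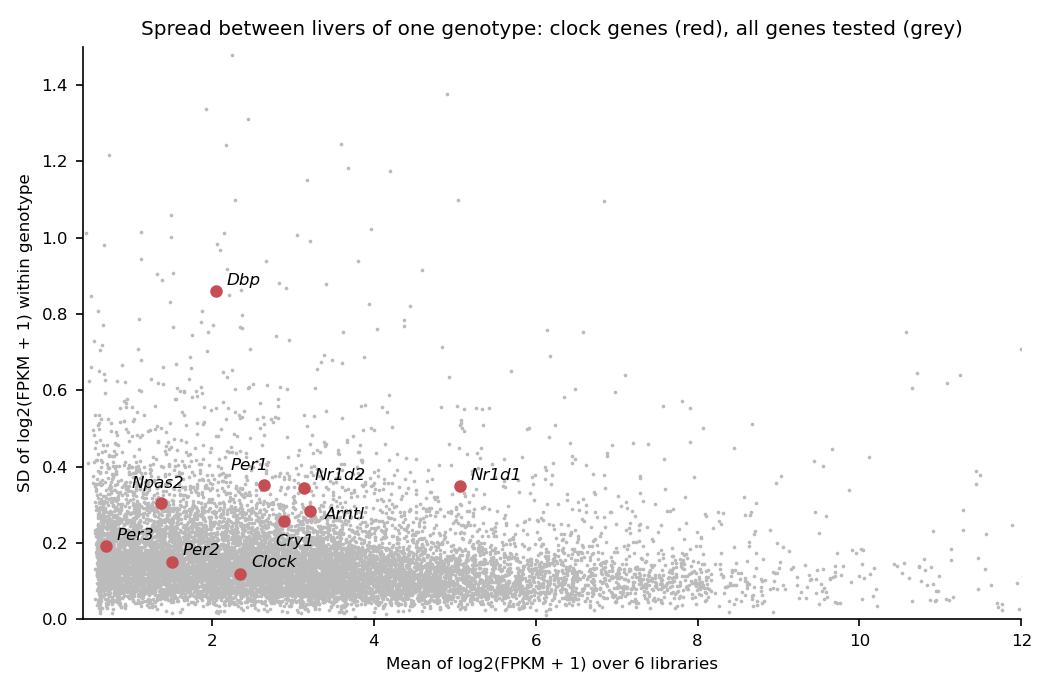
SD of log2(FPKM + 1) between livers of one genotype against the mean of log2(FPKM + 1), for the 10 clock genes (red) and all genes tested (grey; 29 genes lie outside the axes). *Dbp* at 0.86 stands far above the bulk of genes of like level, and *Clock* at 0.12 lies within it.

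Within each genotype the livers took opposite positions in *Arntl* and *Dbp*. TRIM24-C52/55A replicate 3 had the highest *Dbp*, *Per2*, *Per3*, *Nr1d1* and *Nr1d2* of its genotype and the lowest *Arntl*, *Npas2*, *Cry1* and *Per1*. TRIM24-C52/55A replicate 2 was the reverse, highest in *Arntl*, *Npas2*, *Cry1* and *Per1* and lowest in the other 6. Among WT livers, replicate 3 had the lowest *Arntl*, *Npas2*, *Cry1* and *Nr1d1* and the highest *Dbp* and *Per2*. The ratio of *Arntl* to *Dbp* in FPKM was 2.35, 1.71 and 0.730 in WT and 9.12, 17.7 and 1.29 in TRIM24-C52/55A livers, so that the last fell inside the range of the WT livers.

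*Per1* by itself did not overlap between genotypes, so the ratio of *Arntl* to it is no separate result. This ratio did not overlap either, at 1.4998, 0.721 and 0.618 in WT and 3.26, 2.84 and 2.74 in TRIM24-C52/55A livers. Here TRIM24-C52/55A replicate 3 was close to its group. It lay inside the WT range for 7 of the 10 clock genes, against 2 for replicate 1 and 1 for replicate 2. Over all genes tested the shares inside the WT range were 29.8%, 34.5% and 33.4% for replicates 1 to 3. Whether the livers were taken at different hours was not tested, since no hour is given.

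The 21 further clock genes of a second list, regulators and modifiers of the loop, had 18 members that passed the filter. Of these 3 were called (16.7% against 7.72% of all genes), all lower with the knockin, and 7 of the 18 did not overlap between genotypes, all on the lower side, where 22.5% of all genes lay. The median log2 fold change was -0.09. *Bhlhe40* and *Ciart* were among those called. *Bhlhe40* (DEC1), an E-box repressor, fell from 30.5 ± 5.10 to 18.8 ± 1.73 FPKM (SD, n = 3 each; log2 fold change -0.66, adjusted p = 0.0199 from limma), with 27.9, 36.3 and 27.1 FPKM in WT and 16.8, 19.4 and 20.2 FPKM in TRIM24-C52/55A livers.

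*Ciart* (CHRONO), another repressor of the BMAL1 pair, had 1.05, 1.01 and 1.39 FPKM in WT and 0.179, 0.186 and 0.641 FPKM in TRIM24-C52/55A livers (log2 fold change -0.70, adjusted p = 0.0331 from limma). Its interval in the files also covers *BC028528*. All 3 calls of the list were lost when either WT replicate 1 or TRIM24-C52/55A replicate 1 was left out. Without TRIM24-C52/55A replicate 2, 2 of 18 genes were called. Calls over all genes were 311, 294 and 1280 in those settings. With median-of-ratios scaling 1 of 18 was called, and with TPM 5.

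*Tef* and *Hlf*, which encode the D-box factors closest to DBP, were named after their values were seen. *Tef* had 16.4, 19.4 and 21.9 FPKM in WT and 13.3, 10.4 and 20.5 FPKM in TRIM24-C52/55A livers (log2 fold change -0.41, adjusted p = 0.309 from limma), and replicate 3 was again the one inside the WT range. Without TRIM24-C52/55A replicate 3 its log2 fold change was -0.66 (adjusted p = 0.0429 from limma), and without replicate 2 it was -0.20. *Hlf* had 12.4, 11.98 and 15.4 FPKM in WT and 10.6, 8.26 and 9.59 FPKM in TRIM24-C52/55A livers, without overlap (log2 fold change -0.44, adjusted p = 0.0701 from limma).

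By likeness of profile over the 6 libraries, among 1682 genes with an SD of at least 0.3, *Tef* ranked second to *Sulf2* beside *Dbp* (Pearson r of log2(FPKM + 1) 0.986 and 0.989), followed by *Gnat1*, *Akr1d1* and *Gm10145*. *Ocln* and *Cldn1*, which encode tight junction proteins, were most like *Arntl* (r of 0.983 and 0.982), followed by *Chka*, *C330013E15Rik* and *4833411C07Rik*. These genes were picked for the highest r, over 6 libraries that share the 2 genotypes, and the values are a description.

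The largest share of calls was among 16 genes of liver known for a daily rhythm, of which 15 passed the filter. Of these 7 were called (46.7% against 7.72% of all genes), 6 of them lower with the knockin and 1 higher, and the median log2 fold change was -0.45. The list was written with results of these data known, and *Rgs16* and *Elovl3* were among the genes already described, so that the share is no independent evidence. *Rgs16*, a regulator of G-protein signalling, had 62.9, 36.2 and 24.9 FPKM in WT and 4.78, 10.7 and 7.84 FPKM in TRIM24-C52/55A livers (log2 fold change -2.23, standard error 0.34, adjusted p = 0.00965 from limma). *Noct*, which encodes nocturnin, had 4.34, 7.59 and 12.5 FPKM in WT and 1.76, 2.12 and 1.70 FPKM in TRIM24-C52/55A livers (log2 fold change -1.58, standard error 0.29, adjusted p = 0.0174 from limma). Neither gene overlapped between genotypes.

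*Nr1i3*, which encodes the xenobiotic receptor CAR and is a target of the D-box factors, fell from 120 ± 19.6 to 68.3 ± 7.95 FPKM (SD, n = 3 each; log2 fold change -0.80, adjusted p = 0.0127 from limma). *Nampt*, for the rate-limiting step of NAD salvage, fell from 10.8 ± 0.415 to 7.70 ± 0.767 FPKM (SD, n = 3 each; log2 fold change -0.45, adjusted p = 0.0285 from limma). *Wee1*, a kinase that holds back mitosis, fell from 1.17 ± 0.178 to 0.593 ± 0.0570 FPKM (SD, n = 3 each; log2 fold change -0.44, adjusted p = 0.0451 from limma). *Elovl3*, a fatty acid elongase, rose from 284 ± 32.7 to 591 ± 140 FPKM (SD, n = 3 each; log2 fold change 1.03, adjusted p = 0.0131 from limma). Without WT replicate 1, or without TRIM24-C52/55A replicate 1, the number called was 2 of 15. Without WT replicate 2 or WT replicate 3 it was 3, and without TRIM24-C52/55A replicate 2 or replicate 3 it was 8. Calls over all genes moved as well. They were 311, 475 and 300 without WT replicates 1 to 3, and 294, 1280 and 788 without TRIM24-C52/55A replicates 1 to 3. With no filter on low FPKM none of 16 passed the limma threshold (10 had an unadjusted p under 0.05), where 347 of 21528 genes did. With median-of-ratios or quantile scaling 4 passed, and with TPM 9. Of all 12225 genes those 3 settings called 656, 633 and 1555. *Nampt* was called in 7 of 15 alternatives and *Wee1* in 4 of 14.

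*Alas1*, for the first step of haem synthesis, and *Cyp2a5*, both known targets of the D-box factors, were named after their values were seen. *Alas1* had 168, 174 and 277 FPKM in WT and 63.6, 22.3 and 185 FPKM in TRIM24-C52/55A livers (log2 fold change -1.63, adjusted p = 0.162 from limma). *Cyp2a5* had 119, 142 and 196 FPKM in WT and 71.9, 27.8 and 111 FPKM in TRIM24-C52/55A livers (log2 fold change -1.28, adjusted p = 0.118 from limma). In both genes the order of the 6 livers within each genotype was that of *Dbp*: replicate 3 highest in both groups, replicate 1 lowest in WT and replicate 2 lowest in TRIM24-C52/55A. Without TRIM24-C52/55A replicate 3 both passed the test, with adjusted p-values of 0.0153 and 0.0351 from limma. Without TRIM24-C52/55A replicate 2 neither did, with log2 fold changes of -0.88 and -0.73 (adjusted p-values of 0.222 and 0.0989). *Nr1i3*, also named above as a D-box target, did not keep the order of *Dbp*. It had 120, 101 and 140 FPKM in WT and 76.8, 61.0 and 67.0 FPKM in TRIM24-C52/55A livers.

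**Figure D4:**
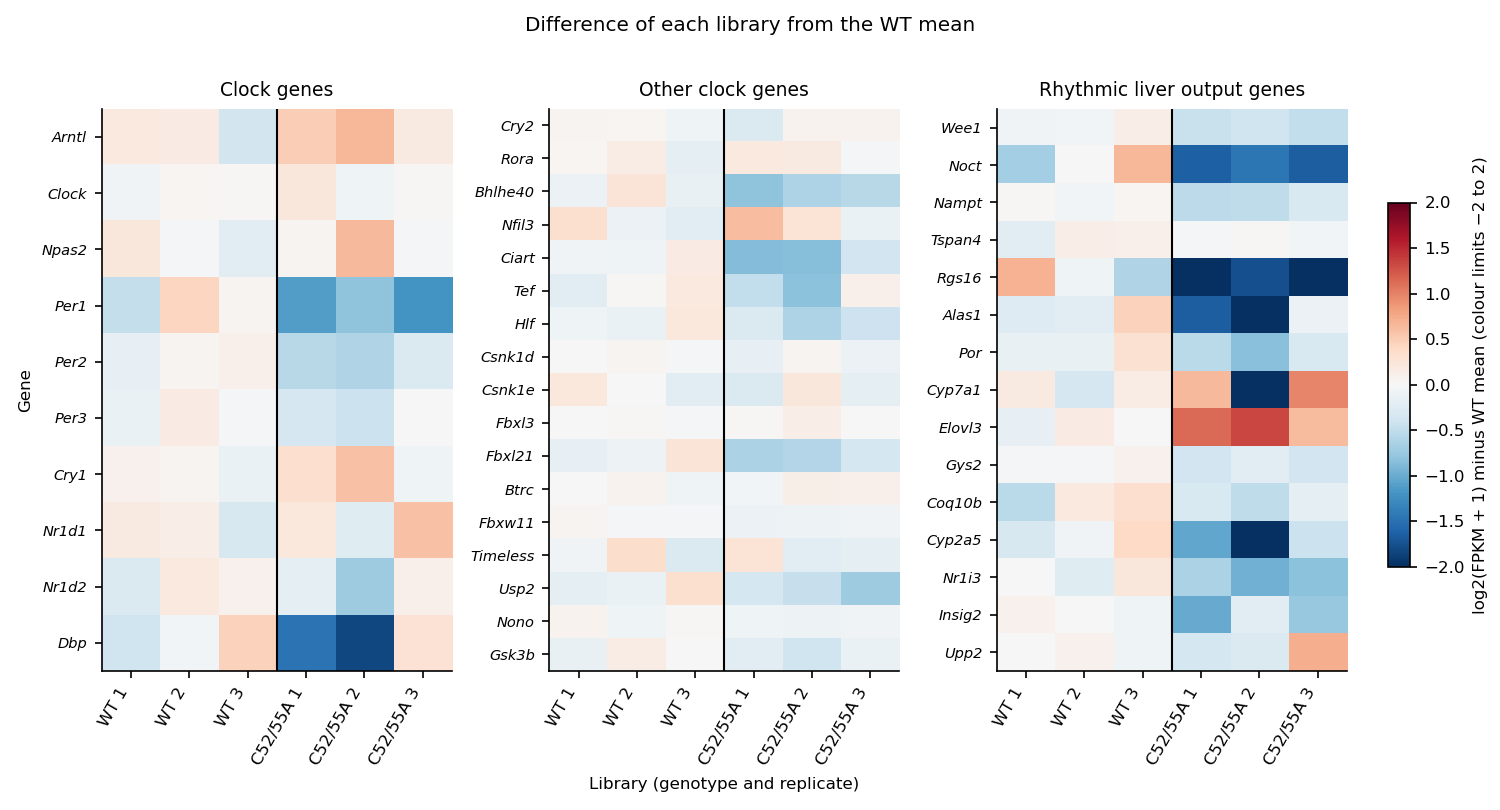
Difference of log2(FPKM + 1) in each library from the WT mean of the gene (colour, limits -2 to 2) for the 10 clock genes and for members of 2 further lists that passed the filter; columns are libraries by genotype and replicate. *Dbp* and *Alas1* are deep blue, and *Tef* lighter blue, in TRIM24-C52/55A replicates 1 and 2, and all 3 are near the WT mean in replicate 3, whereas *Per1*, *Rgs16* and *Noct* are blue in all 3.

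Genes that answer to cues which also reset the liver clock were counted beside it. Of 7 glucocorticoid-responsive genes 1 was called, *Mt2*, a metallothionein, which was lower (log2 fold change -1.60, adjusted p = 0.00608 from limma), and the median of the list was -0.59. *Tsc22d3*, *Sgk1*, *Dusp1*, *Fkbp5* and *Tat* had fitted values below 0 without passing the test. The remaining member, *Zbtb16*, had a fitted value above 0 (log2 fold change 1.47, adjusted p = 0.17 from limma). Without TRIM24-C52/55A replicate 2, the library with adipocyte markers, 4 of the 7 were called, all lower. More genes were called over all genes in that setting too, 1280 of 12219, of which 1041 were lower. Of 8 genes that answer to heat or cold 2 were called, the near-identical chaperone genes *Hspa1b* (log2 fold change -1.55, adjusted p = 0.00662 from limma) and *Hspa1a* (-1.24, adjusted p = 0.0190), between which the quantification could split fragments, and the median was -0.15.

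Of 7 fasting and feeding genes 2 were called, with *Fgf21* (log2 fold change -1.39, adjusted p = 0.0248 from limma), a hormone raised by fasting, being among them. Both calls were lower, and the median was -0.69. The list pools genes of fasting with genes of feeding, so its median gives no direction between those states. Of 5 immediate early genes 1 was called, *Jun*, which was lower (log2 fold change -0.85, adjusted p = 0.0397 from limma), and the median was -0.31. These counts stand beside 7.72% of all genes called and come from lists of 8 genes or fewer. Leaving out 1 library gave 294 to 1280 calls over all genes. With 1 library left out, 0 to 2 of the fasting and feeding genes and 0 to 1 of the immediate early genes were called by limma, with 4 and 1 to 2 at an unadjusted p under 0.05 where none was. The part of hormones, body temperature, meals or handling in the clock genes was not tested.

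**Figure D5:**
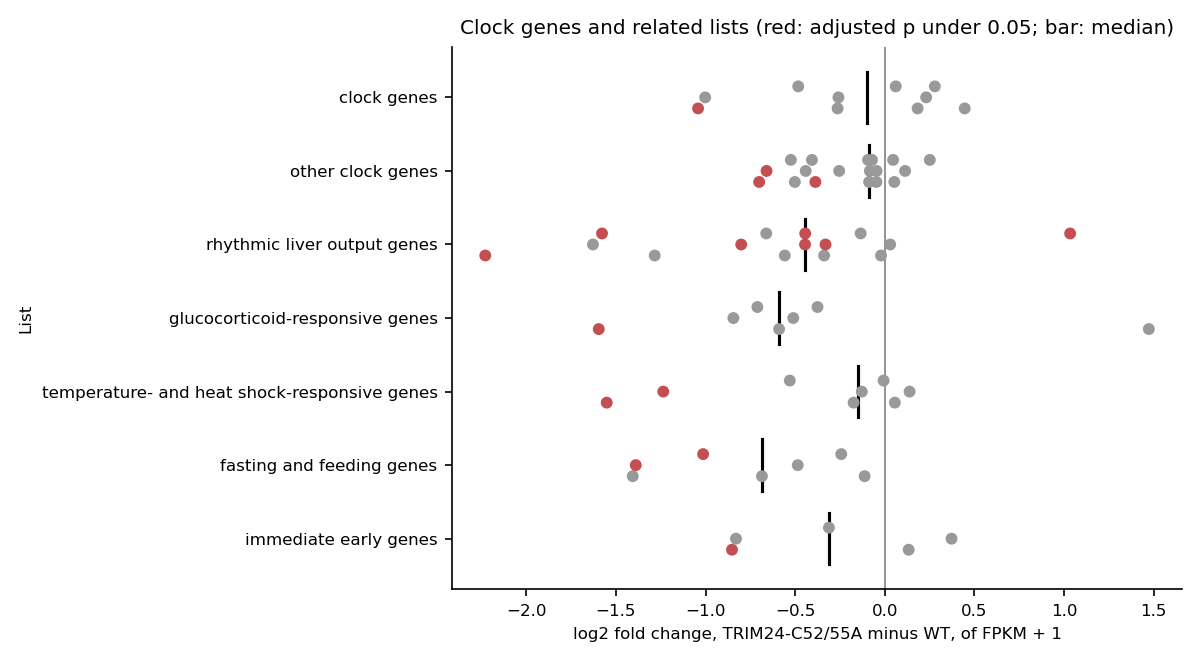
Log2 fold change (TRIM24-C52/55A minus WT, of FPKM + 1) of every gene that passed the filter in the clock genes and 6 related lists; red points have an adjusted p under 0.05 (limma) and black bars are list medians. The clock genes lie on both sides of 0 with a median of -0.10, and the rhythmic liver output genes have a median of -0.45 with *Elovl3* the one red point above 0.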

How the data were processed

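RNA from 6 livers, 3 per genotype, was sequenced, and 1 table of FPKM per liver was deposited. The FPKM values were computed by the authors per transcript length and library size. The submitters' processing notes list Salmon 0.14.0 and GRCm38 without saying how FPKM were made, and the annotation is not given in the sources used here. A gene that a table did not list was set to 0. The numbers in the labels tell the livers of a genotype apart but do not state that each came from its own mouse, so p-values measure the spread between these samples.

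The test took genes whose mean reached 0.5 FPKM, as log2(FPKM + 1) with limma 3.58.1 in R 4.3.3 (eBayes with a mean-variance trend), with Benjamini-Hochberg adjustment over all genes. The same code was tested on simulated data. Single genes also had an exact two-sided permutation test of mean FPKM. Tables and figures were made in Python 3.11.15 (matplotlib 3.10.9 for plots; pandas 2.3.3; scipy 1.17.1 for the permutation test; numpy 2.4.6). Coordinates are 1-based from GENCODE M21, which held 21454 of the 21528 gene identifiers. Promoters are from RefSeq (GRCm38.p6).

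The members and the gene lists were chosen with earlier results of these data known. In each list up to 6 called genes were named by size of fold change, and all 10 clock genes were named; some genes of the further lists are counted but not reported here by name. The alternatives were a pseudocount of 0.1 FPKM, filtering not at all or at 1 FPKM, scaling by TPM, by median-of-ratios or by quantiles, limma without a trend or with a robust one, a replicate block and each library left out in turn; those for the further lists were added after the data were seen.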

Additional observations from a re-analysis of the deposited data

How the results depend on the processing

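Over 15 alternatives *Per1* was lower each time and was called in 10 (adjusted p from limma 0.0128 to 0.103). Besides the 4 libraries named above, its call was lost with no filter on low FPKM (adjusted p = 0.0899). The number of clock genes called, 1 of 10, became 0 with no filter and 2 with TPM, and was 0 to 2 with 1 library left out. At 0 calls with no filter, 2 of the 10 had an unadjusted p under 0.05. Of the fitted directions, with 1 library left out, that of *Clock* ran from -0.025 (without TRIM24-C52/55A replicate 1) to 0.13 and that of *Nr1d1* from -0.015 (without TRIM24-C52/55A replicate 3) to 0.39, and the other 8 genes kept theirs in every alternative run. *Per3* was not tested at a mean of at least 1 FPKM. Over all genes, 944 calls (200 higher, 744 lower) became 347 with no filter, 1555 with TPM (197 higher, 1358 lower), 656 with median-of-ratios scaling (250 higher, 406 lower), 633 with quantile normalization (255 higher, 378 lower) and 294 to 1280 with 1 library left out. Over all genes the deviations of same-numbered livers had correlations of -0.12, -0.10 and 0.00, which cannot settle whether the labels pair the livers. With the replicate number as a block, 578 genes and the same number of clock genes, 1, were called. The block raised the standard errors of *Clock* (0.11 to 0.13), *Per3* (0.15 to 0.16) and *Nr1d1* (0.21 to 0.23). It lowered those of the other clock genes, among them *Dbp* (0.50 to 0.28), *Arntl* (0.18 to 0.11) and *Per1* (0.22 to 0.15). Pairing of the livers was not tested. FPKM keep no counts, so no counting error can be given for genes of low level such as *Per3*, and the cause of the changes between settings was not tested.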
